A study of Schizosaccharomyces pombe with 15 samples.

Results

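A set of 6 main 3′ ends of U6 small nuclear RNA in fission yeast, Schizosaccharomyces pombe, was followed through every file: runs of exactly 4, 5 or 6 Us, each either alone (plain) or closed by exactly 1 A. They were chosen by their sequence, and they are 6 of the 77768 distinct ends listed over the 19 files. Every one of the 6 was listed in all 19 files, so none was lost to a filter. The quantity compared throughout is the A-bearing fraction, the reads that carry the A as a percentage of plain plus A-bearing reads with the same number of Us.

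The ends were read by 3′ RACE, in which an adapter is joined to the 3′ ends of total RNA and U6 is then copied, amplified and sequenced. There were 15 libraries, 1 for each strain or treatment, from cells in logarithmic growth in rich medium at 30 °C. The untagged strains were wt, rrp6Δ, mpn1Δ, mpn1Δrrp6Δ, cid14Δ, cid14Δmpn1Δ, cid11Δ, cid12Δ and cid16Δ, where Δ marks a deleted gene, and all 9 were treated with polynucleotide kinase (PNK) before ligation. The other 2 libraries, wt and rrp6Δ, were made without PNK, which clears terminal phosphates from RNA so that the adapter can be joined. The 4 tagged strains carried a tagged U6 beside the endogenous one: tU6-wt, tU6-C36A, mpn1Δ tU6wt and mpn1Δ tU6-C36A, where C36A names a base change in the tagged copy. Each of these 4 libraries came as separate files of endogenous and of tagged U6, and all 4 were PNK-treated. The reads cover U6 alone, so the deletions themselves could not be checked from them.

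Each file held 408281 to 3966962 reads with an end sequence. The exact 95% interval of an A-bearing fraction reached at most 0.980 percentage points to either side at 4 Us, 0.212 at 5 Us and 0.291 at 6 Us. Without molecular identifiers, PCR copies count as reads, and the intervals cover counting error only. No group had a replicate, and the tests below take strains, or pairs of strains, as their units. Libraries also differed in how many ends contained an N, an uncalled base. These were 0.0217% to 0.0244% in cid11Δ, cid12Δ, cid16Δ and wt without PNK, at most 0.000142% in the other 7 untagged libraries, and 0.00249% to 0.00598% in the 8 files from tagged strains. No batch is named in the labels, and where a comparison crosses these sets, set and genotype cannot be told apart.

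U6 is the catalytic small nuclear RNA of the spliceosome. RNA polymerase III transcribes it and stops in a run of Ts, so the new RNA ends in Us, which the La protein and later the Lsm ring bind. The 3′-5′ exonuclease Mpn1, called USB1 in humans, trims this U tail and leaves a terminal phosphate. Rrp6 is an exonuclease of the nuclear exosome, which degrades RNAs that have received short A tails. Cid14 is the poly(A) polymerase that adds such tails in the TRAMP complex, and Cid11, Cid12 and Cid16 belong to the same family of nucleotidyltransferases.

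The 6 ends are shown as the files list them, in DNA letters with T for U and 5′ to 3′, because the results turn on which of them gain reads. The capital marks the last A.
4 Us: tttt
4 Us and 1 A: ttttA
5 Us: ttttt
5 Us and 1 A: tttttA
6 Us: tttttt
6 Us and 1 A: ttttttA

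They follow the body of U6, encoded by snu6 on chromosome I, minus strand, at I:2562276-2562419 in the ASM294v3 assembly, with exon 1 at 2562374 to 2562419 and exon 2 at 2562276 to 2562323. The end of exon 2 and the bases after it, from 2562256 to 2562305 on the minus strand, are printed because they show what is encoded there, with the T run in capitals.
U6 3′ region: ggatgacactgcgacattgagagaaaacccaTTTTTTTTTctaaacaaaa
The run holds 9 Ts, at 2562266 to 2562274, and is followed by a C. Of 3576 reads that continued for 8 bases into the downstream sequence, 94.9% had 9 Ts. An A after 4, 5 or 6 Us is therefore not encoded at this locus.

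The 6 ends held most reads in every file. Their summed share ran from 65.9% in cid14Δ to 96.6% in cid11Δ, with a median of 80.7%. Plain ends of 4 to 6 Us made up 55.8% to 98.3% of all ends in Us alone, and those with 1 A made up 61.6% to 94.6% of all ends in Us followed by As. The plain 5-U end was the commonest of all ends in 11 of 19 files, the end with 5 Us and 1 A in 7, and the end with 6 Us and 1 A in 1, tagged U6 of mpn1Δ tU6-C36A.

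In wt the last A was most frequent on the shortest of the runs. With 4 Us, 7.35% of reads were plain and 1.61% carried the A, an A-bearing fraction of 17.9% (95% interval 17.7 to 18.2). With 5 Us, 55.0% were plain and 1.33% carried the A, a fraction of 2.36% (2.32 to 2.41). With 6 Us, 11.9% were plain and 0.801% carried the A, a fraction of 6.29% (6.15 to 6.44). The 5-U run, by far the commonest, thus had the lowest fraction, and the odds of carrying the A at 5 Us were 0.111 times those at 4 Us, while those at 6 Us were 2.77 times those at 5 Us. Of the A-bearing reads with 4 to 6 Us, 43.0% sat on 4 Us, against 9.90% of the plain reads.

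Loss of mpn1 turned this pattern over. In mpn1Δ the A-bearing fraction was 79.7% (79.5 to 80.0) at 4 Us, 86.4% (86.3 to 86.5) at 5 Us and 78.3% (78.2 to 78.4) at 6 Us, so that the 5-U run had the highest fraction. Against wt the fraction was higher by 61.8 points at 4 Us, 84.0 points at 5 Us and 72.0 points at 6 Us. The shares of reads moved in opposite directions: the ends with 1 A held 5.21, 26.3 and 28.8 times their wt shares at 4, 5 and 6 Us, while the plain ends were 3.46, 9.98 and 1.87 times lower. All 6 were past a limit of 1.5 times, beside 89.2% of the 74 ends with a mean share of at least 0.01% in these 2 libraries, so being past that limit does not set the 6 apart. Only 12.6% of A-bearing reads sat on 4 Us in mpn1Δ, while 52.7% sat on 5 Us and 34.7% on 6 Us.

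The same direction was found in every background in which mpn1 was deleted. At 5 Us the A-bearing fraction of endogenous U6 was 41.1% in rrp6Δ and 86.3% in mpn1Δrrp6Δ, 4.33% in cid14Δ and 84.1% in cid14Δmpn1Δ, 1.60% in tU6-wt and 69.3% in mpn1Δ tU6wt, and 0.992% in tU6-C36A and 52.9% in mpn1Δ tU6-C36A. At 6 Us it was 42.1% and 74.9% in the rrp6Δ pair, 9.84% and 73.7% in the cid14Δ pair, 12.6% and 71.3% in the tU6-wt pair, and 6.31% and 65.3% in the tU6-C36A pair. At 4 Us, where only untagged strains can be used, it was 56.9% and 81.5% in the rrp6Δ pair and 14.6% and 76.1% in the cid14Δ pair. The paired difference was 65.7 ± 16.9 points at 5 Us (SD, n = 5 pairs) and 57.3 ± 14.7 points at 6 Us, higher without mpn1 in 5 of 5 pairs each, and 49.3 ± 21.4 points at 4 Us in 3 of 3 pairs. The exact two-sided sign-flip test gave p = 0.0625 for 5 pairs and p = 0.25 for 3 pairs, the smallest each can give, so it could not pass 0.05. In every pair of untagged strains the difference was largest at 5 Us, and at each run it was smallest in the rrp6Δ background. This held in log2 odds too. There the differences at 4, 5 and 6 Us were 1.74, 3.18 and 2.04 in the rrp6Δ pair. They were 4.17, 8.04 and 5.75 in the wt pair and 4.21, 6.87 and 4.68 in the cid14Δ pair. The fraction with mpn1 was highest in rrp6Δ, and why the difference was smaller there was not tested.

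Across the PNK-treated libraries, the 3 fractions of endogenous U6 were higher without mpn1 and the groups did not overlap, with the 4-U run taken over untagged strains. This was not particular to these 3 runs. Of the 8 run lengths tested, 1 to 8 Us, 62.5% were called and 37.5% did not overlap over 13 libraries. Over the 9 untagged ones 75.0% were called and 75.0% did not overlap. The rates and the adjustment over 13 libraries include 4 Us in tagged strains, where ends of 4 nt were nearly missing. That run was called there, with overlap. A run of 3 Us enters too, and its end with 1 A is also 4 nt long. A run of 7 Us, outside the 6 ends, gave 62.5% to 79.9% without mpn1 and 0.491% to 35.7% with it over the 13 libraries. At 5 Us the fraction was 75.8 ± 14.6% in 5 libraries without mpn1 and 6.49 ± 14.03% in 8 with it (mean ± SD), and the lowest value without mpn1, 52.9%, lay above the highest with it, 41.1%. At 6 Us it was 72.7 ± 4.84% against 10.5 ± 13.3%, with ranges of 65.3% to 78.3% and 1.92% to 42.1%. For each, the exact two-sided permutation p was 0.000777, the smallest that 1287 regroupings can give (Benjamini-Hochberg adjusted over 8 run lengths, 0.00207). At 4 Us, over untagged strains, it was 79.1 ± 2.77% (n = 3) against 34.9 ± 16.1% (n = 6), with ranges of 76.1% to 81.5% and 14.6% to 56.9% (exact permutation p = 0.0119, the smallest of 84 regroupings, adjusted 0.0159). The call at 4 Us was lost without mpn1Δrrp6Δ, with a difference of 43.0 points in place of 44.2 (exact permutation, adjusted p = 0.0571). Within the 6 untagged libraries with few Ns the differences were 49.3, 69.7 and 56.2 points at 4, 5 and 6 Us (exact permutation p = 0.1 each, the smallest that 3 against 3 can give), and within the tagged strains 59.8 points at 5 Us and 58.8 points at 6 Us (exact permutation p = 0.333, the smallest that 2 against 2 can give).

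Read as shares of all reads, the ends with 1 A rose without mpn1 and the plain 5-U end fell, whereas the plain 6-U end did not pass the test. Among 84 ends with a mean share of at least 0.01% over the 13 libraries, 17.9% were called higher and 1.19% lower without mpn1, at an adjusted p under 0.05. The 5-U end with 1 A made up 24.6% to 39.4% of reads without mpn1 (median 35.1%) and 0.352% to 19.6% with it (median 0.953%; exact permutation, adjusted p = 0.00932). The 6-U end with 1 A made up 14.7% to 23.1% (median 21.9%) against 0.150% to 7.63% (median 0.736%; exact permutation, adjusted p = 0.00932). The plain 5-U end held 5.51% to 21.9% (median 6.91%) against 28.1% to 86.1% (median 73.1%; exact permutation, adjusted p = 0.0131), and it was the only end of the 84 called lower. Neither the A-bearing nor the plain 5-U ends overlapped between the groups, nor did the A-bearing 6-U ends, where 10.7% of the 84 ends showed no overlap. Over untagged strains alone the plain 5-U end was lower by 56.1 points and was no longer called (exact permutation, adjusted p = 0.0570).

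The plain 6-U end held 7.47 ± 2.85% without mpn1 and 9.39 ± 1.68% with it (mean ± SD, n = 5 and n = 8; exact permutation, adjusted p = 0.352), a difference of -1.92 points. For the 4-U ends the test used untagged strains, where 29.9% of 67 ends were called and 31.3% did not overlap. The plain 4-U end held 2.12%, 2.85% and 3.69% in mpn1Δ, mpn1Δrrp6Δ and cid14Δmpn1Δ and 1.63% to 9.96% in the 6 strains with mpn1 (exact permutation, adjusted p = 0.584). The 4-U end with 1 A made up 8.36%, 12.6% and 11.8% against 1.26% to 7.30% (exact permutation, adjusted p = 0.0399), and this call was lost in 8 of the 9 fits that each left out 1 library, with adjusted p up to 0.114 (exact permutation). Within the 6 untagged libraries with few Ns, the mean share of this end was higher by 7.36 points, and those of 5 and 6 Us with 1 A by 29.4 and 14.4 points. Within the tagged strains the last of these differences were 26.9 and 21.2 points, with the plain 5-U end lower by 55.3 points.

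How the A-bearing fraction depended on the length of the U run differed with mpn1. All 6 untagged, PNK-treated libraries with mpn1 had their highest fraction at 4 Us, the next at 6 Us and the lowest at 5 Us, and all 3 without mpn1 had their highest at 5 Us, the next at 4 Us and the lowest at 6 Us. From 4 to 5 Us the fraction changed by -15.6 points in wt, -15.8 in rrp6Δ, -10.3 in cid14Δ, -40.5 in cid11Δ, -34.8 in cid12Δ and -43.2 in cid16Δ. It changed by 6.66, 4.83 and 8.01 points in mpn1Δ, mpn1Δrrp6Δ and cid14Δmpn1Δ, the other way. The mean change was 6.50 ± 1.60 points without mpn1 (n = 3) and -26.7 ± 14.4 points with it (n = 6), a difference of 33.2 points (two-sided exact permutation p = 0.0238, adjusted over 7 steps 0.0278). The difference was 31.6 points without cid12Δ, where the call was lost (exact permutation, adjusted p = 0.0625), and 20.4 points without cid11Δ, cid12Δ and cid16Δ (exact permutation p = 0.1, the smallest that 3 against 3 can give). Pooled over all 9 libraries the change was -15.6 ± 20.1 points (exact sign-flip, adjusted p = 0.0766).

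From 5 to 6 Us the fraction was higher in 8 of 8 libraries with mpn1, by 1.02 points in rrp6Δ to 11.0 points in endogenous U6 of tU6-wt. Without mpn1 it was lower in all 3 untagged strains, by -8.11, -11.4 and -10.4 points in mpn1Δ, mpn1Δrrp6Δ and cid14Δmpn1Δ, and higher in both tagged strains, by 1.98 points in mpn1Δ tU6wt and 12.4 points in mpn1Δ tU6-C36A. The difference between the groups, -3.12 ± 10.2 points (n = 5) against 4.03 ± 3.31 points (n = 8), did not pass the test (exact permutation p = 0.0793, adjusted 0.182). It did pass over untagged strains alone, at -9.99 ± 1.71 points (n = 3) against 2.65 ± 1.72 points (n = 6; exact permutation, adjusted p = 0.0208), and on the scale of log2 odds, at -0.39 ± 0.79 against 1.92 ± 0.97 over all 13 libraries (exact permutation, adjusted p = 0.0218). It also passed without mpn1Δ tU6-C36A, at -11.0 points (exact permutation, adjusted p = 0.0189). Within the 6 untagged libraries with few Ns it was -13.5 points, where 3 against 3 cannot go below 0.1 (exact permutation p = 0.1). Within the tagged strains it was -0.986 points, with a mean change of 7.18 points without mpn1 and 8.17 points with it (exact permutation p = 1, n = 2 and n = 2, where the smallest possible is 0.333). Pooled over 13 libraries the change from 5 to 6 Us was 1.28 ± 7.35 points (exact sign-flip p = 0.536), with 10 of 13 above 0. In each of the 19 files the 95% counting interval of this change excluded 0 (counting error only).

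With rrp6 alone deleted, more ends carried the A at all 3 run lengths. The A-bearing fraction in rrp6Δ was 56.9% (56.6 to 57.2) at 4 Us, 41.1% (40.9 to 41.2) at 5 Us and 42.1% (41.8 to 42.4) at 6 Us, higher than in wt by 39.0, 38.7 and 35.8 points, each past the limit of 5 points and 1.5 times set for single libraries. The rise was not particular to these 3 runs. In rrp6Δ the fraction was 18.4% at 3 Us, 35.7% at 7 Us and 25.2% at 8 Us, against 4.95%, 7.58% and 4.79% in wt. At 1 and 2 Us it was 1.20% and 2.49% against 1.13% and 1.65%. The ends with 1 A held 7.30%, 19.6% and 7.63% of reads, 4.55, 14.7 and 9.53 times their wt shares. The plain 5-U end held 28.1%, or 0.510 times, while the plain 4-U and 6-U ends held 5.53% and 10.5%, or 0.752 and 0.880 times, under the limit. Past 1.5 times were thus 4 of the 6 ends, beside 54.1% of all 74. The order of the run lengths stayed that of wt, but 5 and 6 Us differed by only 1.02 points (0.706 to 1.34), and 56.7% of the A-bearing reads sat on 5 Us.

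In cells without mpn1, deletion of rrp6 added little. Between mpn1Δrrp6Δ and mpn1Δ the fraction differed by 1.77 points at 4 Us, -0.0569 points (-0.208 to 0.0938) at 5 Us and -3.40 points at 6 Us, all under the limit. The A-bearing reads lay on shorter runs: 4 Us with 1 A made up 12.6% of reads against 8.36%, 1.504 times as much, and that with 6 Us and 1 A 14.7% against 23.1%, or 0.637 times, where 39.2% of 79 ends were past 1.5 times. The mean run of the A-bearing ends was 5.03 nt in mpn1Δrrp6Δ and 5.22 nt in mpn1Δ. That of the plain ends was 5.15 nt and 5.30 nt, so shorter runs were not particular to reads with the A.

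Without cid14, none of the 6 ends passed 1.5 times against wt, where 54.2% of 59 ends did. The A-bearing fraction in cid14Δ was 14.6% (14.3 to 14.9) at 4 Us, 4.33% (4.24 to 4.42) at 5 Us and 9.84% (9.58 to 10.1) at 6 Us, that is -3.28, 1.97 and 3.55 points from wt and under the limit. The plain 5-U end held 41.6% against 55.0%. In cid14Δmpn1Δ the fraction was below that of mpn1Δ at each run, by -3.66, -2.30 and -4.62 points, all under the limit. There, too, runs were shorter, both with the A and without it. The mean run was 5.05 nt against 5.22 nt for A-bearing ends and 5.10 nt against 5.30 nt for plain ends. The end with 6 Us and 1 A made up 14.8% against 23.1%, or 0.642 times. That with 4 Us and 1 A made up 11.8% against 8.36%, or 1.41 times, under the limit. The plain 4-U end held 3.69% against 2.12%, or 1.74 times. Of 73 ends, 65.8% were past 1.5 times.

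The cid11Δ, cid12Δ and cid16Δ libraries resembled each other and widened the contrast between run lengths. Their A-bearing fraction was 41.0%, 35.4% and 43.6% at 4 Us, above the 17.9% of wt by 23.1, 17.5 and 25.6 points and past the limit. At 5 Us it was 0.498%, 0.626% and 0.415%, or 0.211, 0.265 and 0.176 times that of wt. At 6 Us it was 2.33%, 2.74% and 1.92%, or 0.370, 0.435 and 0.305 times. All were below wt by less than 5 points. At 5 Us the limit could not be passed, since the wt fraction was only 2.36%. The rise at 4 Us was not particular to that run. At 1, 2 and 3 Us the fraction was 12.6%, 15.5% and 18.9% in cid11Δ and 12.1%, 14.99% and 17.6% in cid12Δ. It was 9.05%, 8.31% and 14.4% in cid16Δ. In wt it was 1.13%, 1.65% and 4.95%, so each of these rises passed the limit. At 7 Us the fraction was 3.41%, 3.23% and 2.70% in cid11Δ, cid12Δ and cid16Δ, below the 7.58% of wt. At 8 Us it was 3.21%, 3.07% and 3.59%, below the 4.79% of wt. The rise at 4 Us came with fewer plain reads and not with more reads in A: the 4-U end with 1 A made up 1.47%, 1.62% and 1.26% of reads against 1.61% in wt, while the plain 4-U end held 2.12%, 2.95% and 1.63% against 7.35%. The plain 5-U end held 86.1%, 78.7% and 84.5%. The ends with 5 and 6 Us and 1 A held 0.187 to 0.372 times their wt shares in all 3. Against 87.8% of 49, 74.5% of 55 and 88.5% of 52 ends past 1.5 times, 5, 3 and 4 of the 6 ends were past it. Of the A-bearing reads on 4 to 6 Us, 71.7%, 68.5% and 71.0% sat on 4 Us. These 3 libraries belong to the set with more Ns and wt does not, so set and deletion cannot be told apart.

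Leaving out PNK raised the A-bearing fraction in wt at every run length. In wt without PNK it was 39.2% (38.9 to 39.4) at 4 Us, 11.4% (11.3 to 11.4) at 5 Us and 13.1% (13.02 to 13.25) at 6 Us, against 17.9%, 2.36% and 6.29% with it, and all 3 differences passed the limit. Runs outside the 6 ends rose as well. Without PNK the fraction was 3.35%, 5.59% and 13.5% at 1, 2 and 3 Us, against 1.13%, 1.65% and 4.95% with it. At 7 and 8 Us it was 10.9% and 7.22% against 7.58% and 4.79%. The order of the 3 main run lengths was the same with and without PNK. The ends with 1 A held 4.20%, 4.38% and 3.15% of reads, which is 2.62, 3.29 and 3.93 times their shares with PNK, rising with the run length. The plain 5-U end held 34.2% against 55.0%, and the plain 6-U end 20.8% against 11.9%. In these libraries 92.5% of 93 ends were past 1.5 times, as were 5 of the 6 main ends, and the 2 libraries came from different sets by their Ns.

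In rrp6Δ, leaving out PNK changed the order of the run lengths. The A-bearing fraction without PNK was 53.2% (53.0 to 53.5) at 4 Us, 76.9% (76.7 to 77.1) at 5 Us and 67.9% (67.6 to 68.2) at 6 Us, so that 5 Us had the highest fraction and 4 Us the lowest. Against rrp6Δ with PNK this was -3.66 points at 4 Us, under the limit, and 35.8 and 25.8 points at 5 and 6 Us, past it. Outside the 6 ends, the fraction without PNK was 18.7% at 3 Us and 56.1% at 7 Us, against 18.4% and 35.7% with it. All 3 ends with 1 A held nearly the same multiple of their shares with PNK, 1.40, 1.41 and 1.42 times at 4, 5 and 6 Us. The plain ends did not: they held 1.62 times at 4 Us, 0.296 times at 5 Us and 0.486 times at 6 Us. The change in the fraction between run lengths therefore lay in the plain ends, which held 8.96%, 8.31% and 5.10% of reads without PNK and 5.53%, 28.1% and 10.5% with it. Of all 90 ends compared, 45.6% were past 1.5 times. Without PNK, rrp6Δ was above wt by 14.1, 65.5 and 54.8 points at 4, 5 and 6 Us, of which that at 4 Us, 1.36 times, was under the limit. The rrp6Δ libraries with and without PNK had alike few Ns, while the last comparison crosses the sets.

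From 5 to 6 Us the A-bearing fraction was higher in 4 of 4 strains for endogenous U6 and in 1 of 4 for tagged U6, and the order at 4 Us cannot be compared, since the endogenous 4-U value of these strains is not usable. For tagged U6 the change was -1.72 points in tU6-wt, -3.35 in tU6-C36A, -8.24 in mpn1Δ tU6wt and 8.27 in mpn1Δ tU6-C36A. For endogenous U6 it was 11.0, 5.32, 1.98 and 12.4 points. In tU6-wt the A-bearing fraction of tagged U6 was 11.0% at 4 Us, 2.90% at 5 Us and 1.18% at 6 Us, and in tU6-C36A it was 22.3%, 8.71% and 5.36%, so in both it was lower at each longer run. In mpn1Δ tU6wt it was 59.5%, 72.0% and 63.8%, with its highest value at 5 Us. In mpn1Δ tU6-C36A it was 30.0%, 60.1% and 68.4%, higher at each longer run. Tagged U6 was above endogenous U6 of the same strain at 5 Us in 4 of 4 strains, by 4.73 ± 3.21 points (SD, n = 4; exact sign-flip p = 0.125, the smallest that 4 strains can give). At 6 Us the difference was -4.20 ± 6.51 points, with tagged U6 higher in 1 of 4 strains, mpn1Δ tU6-C36A (exact sign-flip p = 0.375).

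Loss of mpn1 was accompanied by more A on tagged U6 too. Between mpn1Δ tU6wt and tU6-wt the fraction of tagged U6 differed by 48.5, 69.1 and 62.6 points at 4, 5 and 6 Us, and between mpn1Δ tU6-C36A and tU6-C36A by 7.67, 51.4 and 63.1 points, of which 7.67, a ratio of 1.34, was under the limit. At 7 Us, outside the 6 ends, the fraction was 48.9% against 0.0440% in the first pair and 43.3% against 3.15% in the second. In the first pair, 6 Us with 1 A made up 22.8% against 0.213% of tagged U6 and 27.9% against 1.42% in the second. In each pair 5 of the 6 ends were past 1.5 times, beside 97.3% of 147 and 96.2% of 133 ends.

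Against the wild-type copy, the C36A copy had a higher A-bearing fraction with mpn1 and a lower one without it at 4 Us, both past the limit, and a higher one in both at 6 Us, both under it. With mpn1, its fraction was higher by 11.4 points at 4 Us and 5.81 points at 5 Us, past the limit, and by 4.18 points at 6 Us, under it. It was 2.04, 3.01 and 4.55 times that of the wild-type copy, and at 6 Us fell short in points only. Without mpn1 it was lower by 29.5 points at 4 Us, past the limit, and differed by -11.8 and 4.66 points at 5 and 6 Us, under it. Without mpn1, 4 Us with 1 A made up 2.16% of C36A and 3.79% of wild-type tagged U6, and the plain 4-U end 5.03% and 2.58%. With mpn1 the plain 5-U end held 35.4% of C36A and 61.4% of wild-type tagged U6. Past 1.5 times were 4 of the 6 main ends with mpn1 and 2 of 6 without, beside 96.9% of 162 and 87.9% of 116 ends.

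The 4-U end of endogenous U6 in the tagged strains is marked, because ends of 4 nt were nearly missing from those 4 files. Ends of 4 nt held 0.0114% to 0.0399% of reads there, against 1.74% to 10.4% in untagged libraries and 4.10% to 5.20% of tagged U6. The plain 4-U end held 0.0385% in tU6-wt, 0.00905% in tU6-C36A, 0.0115% in mpn1Δ tU6wt and 0.0102% in mpn1Δ tU6-C36A, and 4 Us with 1 A held 0.496%, 2.50%, 5.55% and 6.48%. The resulting fractions, 92.8%, 99.6%, 99.8% and 99.8%, are ratios to a plain end that is almost absent. They were left out of the main tests at 4 Us. They did enter the tally of run lengths, the adjustments and the alternatives over 13 libraries. An end of 4 Us closed by a C, 5 nt long, made up 3.18%, 0.756%, 1.07% and 0.627% in these files. Per the labels the ligated adapter begins with c. Counted with that C removed, the 4 fractions were 13.5%, 76.8%, 83.9% and 91.2%, and whether the C belongs to U6 was not tested.

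The last base was compared with the other bases that could stand there. A exceeded G after 4, 5 and 6 Us in 19 of 19 files, by 5.44 times or more, and exceeded C in 18, 18 and 19 of 19 files. The exceptions were endogenous U6 of tU6-wt after 4 Us, with 0.156 times as many reads in A as in C, and endogenous U6 of tU6-C36A after 5 Us, with 0.697 times. In wt, where the A is rare, A exceeded C by 30.2, 8.57 and 19.7 times and G by 141, 33.2 and 33.1 times. The margin was smallest among untagged libraries after 5 Us in cid11Δ, at 4.46 times over C. As a measure of miscalled bases, an A in the last but one place of an otherwise plain end of the same length was counted. The last A exceeded it in every file at each run length, with medians of 352, 817 and 146 times and a lowest value of 2.91 times, at 6 Us in tagged U6 of tU6-C36A. Tagged U6 of tU6-wt had no read of that kind at 6 Us, so it gives no ratio there.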

How the data were processed

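The 19 deposited files list counts: each line pairs a whole number of reads with the bases found past the constant part of U6. Per the labels' protocols, 3 µg of RNA received 120 pmol of adapter and cDNA was made from 1 µg of the product, and the authors' counts carry no correction for PCR duplicates. CASAVA 1.8.2 and cutadapt stand in the submitters' processing notes without a role. Read filters, the genome build and the step that split endogenous from tagged U6 were not given in the sources used here, and tagged files were recognised by the word exogenous in their name. Ligation and amplification can favour some ends, so shares describe the sequenced products.

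The line without a sequence, 0.112% to 6.78% of a file's reads, names no end and was left out of all shares. Ends were matched exactly. Intervals are exact (Clopper-Pearson) at 95%, and those of a difference combine the exact intervals of both values by square-and-add. Single libraries were compared by size: past 1.5 times for a share, and past 5 points and 1.5 times for an A-bearing fraction. Groups came from the sample titles. Tests were two-sided exact permutation tests and exact sign-flip tests, with a threshold of 0.05. Permutation tests set 5 against 8 libraries, or 3 against 6 for results on 4-U ends. Benjamini-Hochberg adjustment ran over all run lengths or steps with at least 100 reads in each library. For shares it ran over all ends with a mean share of at least 0.01%. Adjustment over 13 libraries included the marked 4-U values. The named ends are the 6 members, whatever their values, with the same runs followed by C or G as background. The members, lists and tests were chosen with earlier results of these data known, and the library sets by Ns, the comparison with an A in the last but one place and the within-set values after values had been seen. Alternatives were other A tails, log2 odds, other subsets of libraries, each library left out, a last C read as adapter, another denominator and other limits on low ends. The computation was tested on simulated data. Gene coordinates and the genomic sequence are from RefSeq, ASM294v3, used for position only. Python 3.11.15, NumPy 2.4.6 and SciPy 1.17.1 were used.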

Additional observations from a re-analysis of the deposited data

Results flagged for a closer look

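Among the 8 PNK-treated libraries with mpn1, rrp6Δ stood far above the other 7 in the A-bearing fraction at 5 Us, 41.1%, and at 6 Us, 42.1%, and in the share of reads with 1 A at 5 Us, 19.6%, and at 6 Us, 7.63%. Among the 6 untagged ones it also stood apart in the share with 4 Us and 1 A, 7.30%. A value was marked where its gap to the nearest library, over the range of the set, passed Dixon's 95% critical value, which by its construction marks about 1 set in 20. The 5 values, out of 15 sets examined, come from 1 library and overlap, being fractions and shares of the same reads. Without rrp6Δ, the mpn1 calls at all 3 run lengths were kept.

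The change in the A-bearing fraction from 4 to 5 Us differed between strains without and with mpn1 by 33.2 points (two-sided exact permutation, adjusted p = 0.0278). The fraction was higher at 5 Us in 3 of 3 libraries without mpn1 and in 0 of 6 with it. The call was lost without cid12Δ (exact permutation, adjusted p = 0.0625). Without cid11Δ, cid12Δ and cid16Δ, which belong to the set with more Ns, the difference was 20.4 points (exact permutation p = 0.1, the smallest possible).

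Effects of single libraries with opposite signs in 2 settings were listed where both were at least 1 point, over 12 contrasts, and none of these differences was tested. Leaving out PNK changed the fraction at 4 Us by 21.3 points in wt and by -3.66 points in rrp6Δ. Deleting rrp6 changed that at 6 Us by 35.8 points in cells with mpn1 and by -3.40 points in mpn1Δ. Deleting cid14 changed it by 1.97 and -2.30 points at 5 Us and by 3.55 and -4.62 points at 6 Us, with and without mpn1. C36A in tagged U6 went with 11.4 and -29.5 points at 4 Us and with 5.81 and -11.8 points at 5 Us, with and without mpn1.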

How the results depend on the processing

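For the tests of A-bearing fractions and of their changes along the run over 9 or 13 libraries, 104 alternatives kept the direction and the side of the threshold, 6 lost the call, 6 gained one and 1 turned the direction. For the shares of single ends, 82 kept them and 10 lost the call. The effect of mpn1 on the fraction at 5 and 6 Us kept its call under every alternative in that count. A further 33 alternatives to pairs and tagged strains kept their direction but could not pass 0.05 in any case. At 4 Us it was 49.3 points without cid11Δ, cid12Δ and cid16Δ (exact permutation p = 0.1, the smallest possible). The change from 4 to 5 Us was -31.4 points over all 13 libraries and -21.6 points there with a last C read as adapter, both past the threshold, and the effect of mpn1 on it was 32.2 and 24.1 points in those settings and 20.4 points without the 3 cid deletions, all short of it. The change from 5 to 6 Us was 1.03 in log2 odds, past the threshold (exact sign-flip, adjusted p = 0.0376), and -1.56 points over untagged strains, the other sign, where the cause was not tested. The effect of mpn1 on it was -2.30 in log2 odds and -12.6 points over untagged strains, both past the threshold. With ends of at least 0.001% or 0.1% in mean share, 28 or 9 ends were called in place of 16. Leaving out 1 library, the effects of mpn1 ran from 40.2 to 48.6 points at 4 Us, 66.7 to 75.0 at 5 Us and 60.8 to 66.7 at 6 Us. The changes along the run went from -18.6 to -12.2 and from 0.354 to 2.34 points, the effects of mpn1 on them from 29.9 to 36.5 and from -11.0 to -5.07 points, and the ends called from 12 to 23. Paired effects ran from 43.0 to 61.6, 61.2 to 70.9 and 53.6 to 63.4 points at 4, 5 and 6 Us, and tagged minus endogenous fractions from 3.74 to 5.88 and -6.64 to -1.79 points. The pairs are strains with the same background, and no fit with a replicate block was made, since the labels give no replicate numbers. Every file held at least 408281 reads with an end sequence, but PCR copies count among them, so the number of molecules sampled is not known. The 4-U ends were marked because ends of 4 nt were nearly missing, not because those files held few reads. The absence of replicates limits every comparison of single libraries.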
